A study of Mus musculus with 10 samples.

Results

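Scavenger receptors are a structurally mixed family of surface and endosomal proteins through which macrophages take up modified lipoproteins, fatty acids, dying cells, microbes and haemoglobin complexes. They are sorted into classes by structure rather than by ancestry, and many of them bind the same polyanionic ligands. In bone-marrow-derived macrophages, which are grown from marrow progenitors under macrophage colony-stimulating factor, they take part in lipid uptake and clearance. RNA levels do not measure that uptake. The 10 genes described here were listed by symbol and were matched through the symbol column of the deposited log2 table. All 10 were found among the 54307 genes of the count table, and 9 of them were expressed strongly enough to be among the 12411 genes tested. Olr1, the exception, was left out by the filter on low counts.

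Poly(A)+ RNA was sequenced in 5 macrophage libraries from mice with the human WDFY3 knock-in on both alleles (hWDFY3 KI/KI, labelled as overexpressing human WDFY3). Another 5 libraries came from wild-type control mice. All mice were male and 6 to 8 weeks old, and RNA was taken on day 7 of culture of the marrow cells with medium conditioned by L-929 fibroblasts. WDFY3, also called ALFY, is a scaffold protein of selective autophagy, and the comparison asks what its overexpression does to the macrophage transcriptome. Neither the promoter that drives the knock-in nor its locus was given in the sources consulted. The KI/KI libraries held 15215443 to 22891773 estimated counts and the control libraries 14617652 to 36387405. Levels are CPM, which scale each library's counts to a common total after TMM normalization, given as mean ± SD over 5 libraries of a genotype, and differences are fitted log2 fold changes of KI/KI over control ± SE. The mouse gene Wdfy3 was at 120 ± 6.19 CPM in KI/KI and 110 ± 9.83 CPM in control macrophages (adjusted p = 0.811). This is no separate measure of the human transcript, and whether human reads were assigned to the mouse gene was not tested. Macrophage identity was checked with 10 marker genes, all of them expressed. Adgre1, which encodes F4/80, was at 808 to 847 CPM in the KI/KI libraries and at 860 to 1042 CPM in the control libraries. Its log2 fold change was -0.21 ± 0.059 (adjusted p = 0.548), so the groups did not overlap but the difference did not pass the test. Of the 10 markers 3 had a positive and 7 a negative log2 fold change, with a median of -0.042, and 0 passed. Their summed level was 29793 to 36975 CPM in the KI/KI libraries and 23845 to 34802 CPM in the control libraries. Most of that sum was Lyz2, at 24625 to 31387 CPM in the KI/KI libraries and 18250 to 28678 CPM in the control libraries.

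The 3 libraries that stood apart in stromal and neutrophil marker RNA were knock-in replicate 4, control replicate 1 and control replicate 4. Of 15 stromal (fibroblast-type) markers 12 were tested, and none was at 0 in all 10 libraries. Their summed level was 43.5 to 454 CPM in the KI/KI libraries and 105 to 776 CPM in the control libraries. Fibronectin (Fn1), which macrophages also express, made up most of that sum, at 40.8 to 333 CPM in the KI/KI libraries and 88.9 to 577 CPM in the control libraries. In knock-in replicate 1 it gave 247 of 251 CPM, and the mean log2 CPM of the markers there, -0.68, was the second lowest of all 10 libraries. The collagen gene Col1a1 was at 23.2 CPM in knock-in replicate 4 and at 35.4 and 46.8 CPM in control replicates 1 and 4, against 0.0478 to 7.68 CPM in the other 7 libraries. Neutrophil markers, of which 8 of 12 were tested and none was at 0 in all 10 libraries, were also highest there, with a summed 223 CPM in knock-in replicate 4 and 297 and 264 CPM in control replicates 1 and 4, against 53.4 to 126 CPM elsewhere. Mmp8 made up most of the neutrophil sum, at 48.3 to 201 CPM in the KI/KI libraries and 73.2 to 254 CPM in the control libraries. S100a8 was at 7.53 CPM in knock-in replicate 4 and 15.2 and 14.7 CPM in control replicates 1 and 4, against 2.20 to 5.34 CPM elsewhere. These 3 libraries are called stroma-rich here. Of the tested markers 11 of 12 stromal and 8 of 8 neutrophil genes had a negative log2 fold change, with medians of -1.26 and -1.29, and 0 passed the test. In such bulk RNA, fewer cells of a type and less RNA per cell cannot be told apart.

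At an adjusted p under 0.05, the quasi-likelihood test of edgeR called 0 of the 9 tested scavenger receptor genes, against 0.0806% of all tested genes (0.0403% higher and 0.0403% lower in KI/KI). DESeq2, limma-voom and limma on the deposited log2 values also called 0 of them. At an unadjusted p under 0.05 there were 2, against 6.21% of all tested genes. Scarf1 was the 1 higher in KI/KI, against 3.29% of all tested genes, and Cd5l the 1 lower, against 2.92%. The KI/KI and control libraries overlapped for all 10 genes, where 1.32% of all tested genes did not overlap. Of the 9 tested genes 5 had a positive and 4 a negative log2 fold change, with a median of 0.021. Over all tested genes 48.3% were positive, with a median of -0.0046.

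**Figure D1:**
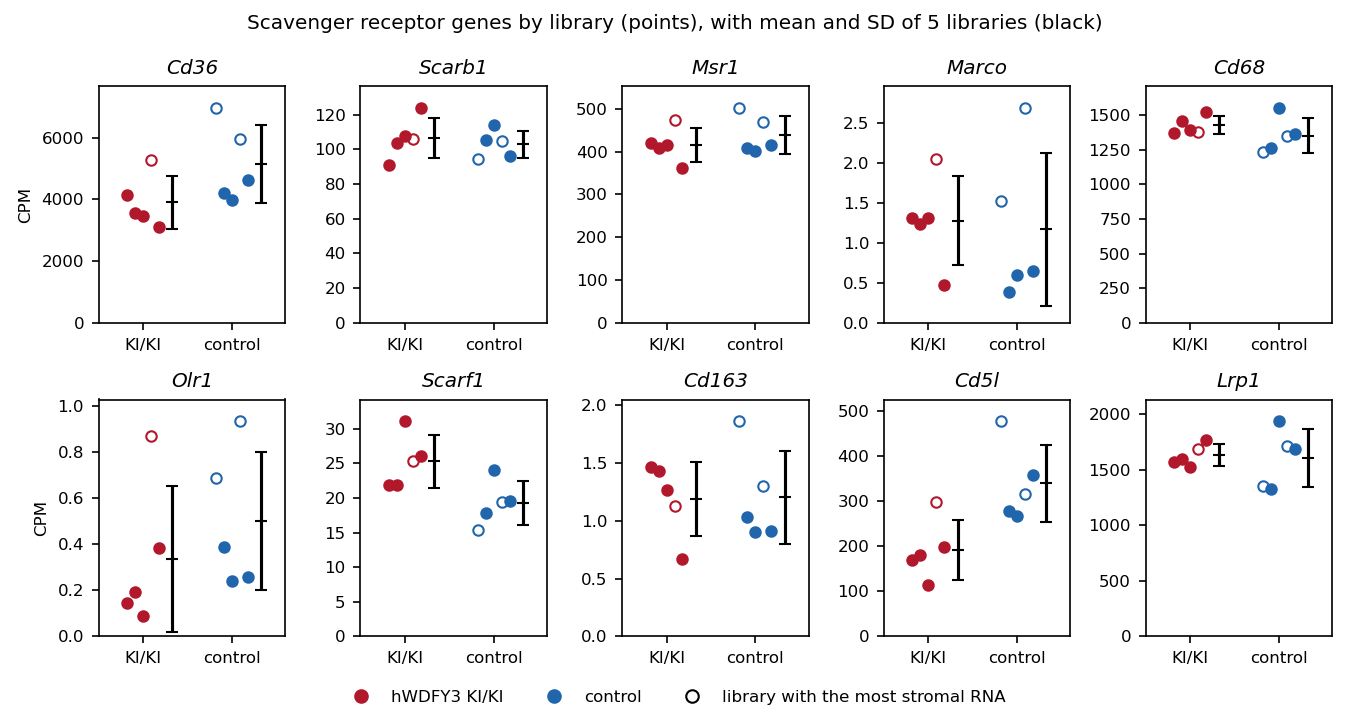
CPM of each gene (vertical axes, each from 0) in the 5 hWDFY3 KI/KI libraries (red, left) and the 5 control libraries (blue, right), with the mean and SD of each genotype in black. Open circles are the 3 libraries with the most stromal RNA, which hold the highest Cd36, Msr1, Marco and Olr1 values of their genotype. The largest fold change between genotypes is that of Cd5l, at 192 ± 67.2 CPM in KI/KI and 340.0 ± 85.1 CPM in control.

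The promoters of the genes with the lowest fold changes, Cd5l and Cd36, are given here, with that of Cd68 as an abundant member whose level varied least. The sequences are from RefSeq (GRCm38.p6), each running from 250 bases before to 50 bases after an annotated start, and 7 of the 10 genes had an entry. Capitals mark matches, on either strand, to the core of the myeloid factor PU.1 (GAGGAA), the motif of nuclear receptors such as PPAR and LXR (AGGTCA), the AP-1 motif (TGANTCA, which reads the same on both strands), the E-box of MITF and TFE3 (CACGTG) and the TATA box (TATAAA).
Cd5l: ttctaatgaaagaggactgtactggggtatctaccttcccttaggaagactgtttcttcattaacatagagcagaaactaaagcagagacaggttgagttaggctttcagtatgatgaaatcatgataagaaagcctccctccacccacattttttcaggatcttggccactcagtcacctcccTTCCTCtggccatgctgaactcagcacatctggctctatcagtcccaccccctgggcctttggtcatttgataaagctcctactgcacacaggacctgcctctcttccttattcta
Cd36: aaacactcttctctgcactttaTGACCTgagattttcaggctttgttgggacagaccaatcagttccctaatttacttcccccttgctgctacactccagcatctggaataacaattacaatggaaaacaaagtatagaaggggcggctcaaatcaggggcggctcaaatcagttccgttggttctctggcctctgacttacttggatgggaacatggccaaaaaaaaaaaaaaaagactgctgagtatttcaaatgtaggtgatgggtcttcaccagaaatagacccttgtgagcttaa
Cd68: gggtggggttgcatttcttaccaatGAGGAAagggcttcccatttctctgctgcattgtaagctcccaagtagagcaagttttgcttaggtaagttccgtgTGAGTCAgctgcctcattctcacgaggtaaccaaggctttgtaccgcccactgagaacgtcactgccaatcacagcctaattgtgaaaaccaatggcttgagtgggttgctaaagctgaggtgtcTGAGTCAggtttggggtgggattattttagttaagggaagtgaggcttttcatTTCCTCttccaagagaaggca
The Cd5l window (chr3:87357631-87357930, plus strand) held 1 match, a PU.1 core on the minus strand whose first base lies at -66. The Cd36 window (chr5:17835847-17836146, minus strand) held 1 match, AGGTCA in reverse orientation at -228. This RefSeq start lies 52.9 kb inside the span of Cd36 in GENCODE M21, a gene with several annotated starts, and which of them these macrophages used is not shown by gene counts. The Cd68 window (chr11:69666121-69666420, minus strand) held 4 matches, with AP-1 motifs at -149 and -24 and PU.1 cores at -225 and 30. Cd5l and Cd36 thus shared no matched motif in these windows. Of all 32851 promoter windows, 28.3% held the PU.1 core, 16.3% the nuclear receptor motif, 7.81% the AP-1 motif, 7.15% the E-box and 13.6% the TATA box, so each match is a description and not a site.

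Per kilobase of the longest annotated transcript, Cd36 and Cd68 were the most abundant members. Cd36 was at 1148 ± 249.3 CPM per kb in KI/KI and 1515 ± 374 CPM per kb in control macrophages, and Cd68 was at 1158 ± 52.7 CPM per kb in KI/KI and 1098 ± 103 CPM per kb in control. Their ranges over libraries overlapped. Next came Cd5l with 94.3 ± 33.01 CPM per kb in KI/KI and 167 ± 41.8 CPM per kb in control, Msr1 with 114 ± 10.99 CPM per kb in KI/KI and 121 ± 12.1 CPM per kb in control, and Lrp1 with 110 ± 6.65 CPM per kb in KI/KI and 108 ± 17.4 CPM per kb in control, whose ranges also overlapped. Scarb1 followed at 34.4 ± 3.81 CPM per kb in KI/KI and 33.3 ± 2.52 CPM per kb in control and Scarf1 at 8.76 ± 1.31 CPM per kb in KI/KI and 6.67 ± 1.09 CPM per kb in control, each apart from its neighbours. Marco, Cd163 and Olr1 closed the order at under 2 CPM per kb in every library, and each overlapped the next. With the length of all annotated exons in place of the longest transcript, a choice made after seeing the data, Lrp1 and Msr1 exchanged places and the ranges of Scarb1 and Scarf1 overlapped.

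**Figure D2:**
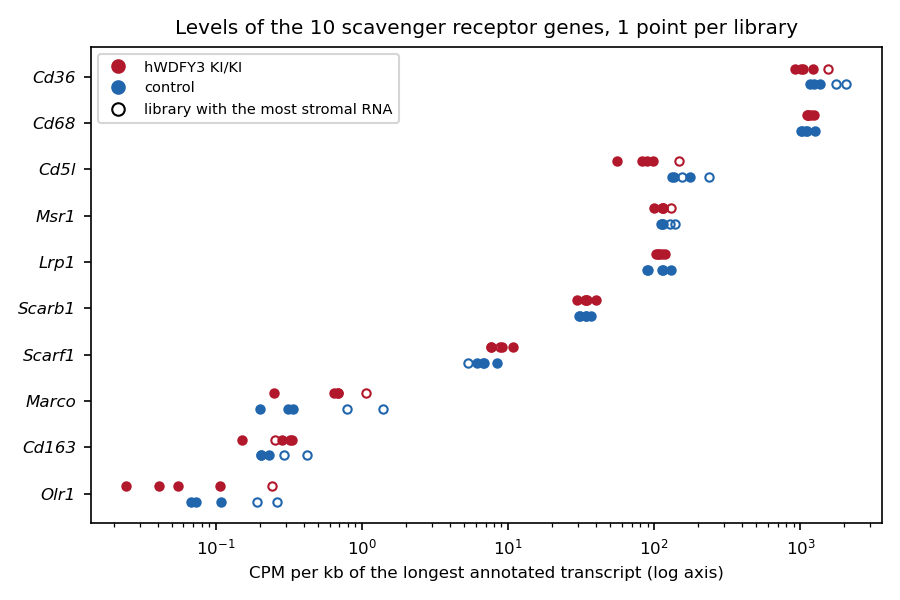
Level of each gene in CPM per kb of its longest annotated transcript (log axis), with 1 point per library, hWDFY3 KI/KI in red above control in blue, and open circles for the 3 libraries with the most stromal RNA. Cd36 and Cd68 span 913 to 2051 and 1001 to 1263 CPM per kb, and Marco, Cd163 and Olr1 lie below 2.

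The 10 genes together took 0.704 to 0.882% of the estimated counts of the KI/KI libraries and 0.783 to 1.03% of those of the control libraries. Cd36 alone made up 43.7 to 57.0% of the family's counts in KI/KI and 48.1 to 65.4% in control macrophages. By mean CPM, Cd36 ranked 20 among the tested genes, Lrp1 52, Cd68 58, Msr1 293, Cd5l 520, Scarb1 1581 and Scarf1 6000, while Marco and Cd163 ranked 11322 and 11352.

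Class B holds Cd36, the receptor for long-chain fatty acids, oxidized LDL and thrombospondin, and Scarb1, which exchanges cholesterol with HDL. Cd36 (ENSMUSG00000002944, chromosome 5, 17781690 to 17888801 in GRCm38, minus strand) was at 4141, 3557, 3447, 5263 and 3104 CPM in knock-in replicates 1 to 5, and at 6971, 4207, 3981, 5949 and 4638 CPM in control replicates 1 to 5. Of the KI/KI libraries 3 lay below every control library, while knock-in replicate 4, which is stroma-rich, lay above 3 of the 5 controls. The means were 3902 ± 847 CPM in KI/KI and 5149 ± 1272 CPM in control, a log2 fold change of -0.40 ± 0.19 (adjusted p = 0.799, unadjusted p = 0.0565). The interval of 2 SE ran from -0.77 to -0.028. Within each genotype the stroma-rich libraries were highest. Without these 3 libraries the means were 3562 ± 432 CPM in 4 KI/KI libraries and 4275 ± 334 CPM in 3 control libraries, with a log2 fold change of -0.26 ± 0.092 (adjusted p = 0.541). Without control replicate 1 alone it was -0.26 ± 0.17 (adjusted p = 0.973), and without knock-in replicate 4 alone it was -0.53 ± 0.17 (adjusted p = 0.491). In the fit that adjusts for the stromal marker score it was -0.24 ± 0.11 (adjusted p = 0.766).

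Scarb1 (ENSMUSG00000037936, chromosome 5, 125277087 to 125341094, minus strand) was at 91.2, 104, 108, 106 and 124 CPM in knock-in replicates 1 to 5 and at 94.6, 106, 114, 105 and 96.1 CPM in control replicates 1 to 5. The groups overlapped throughout, and knock-in replicates 1 and 5 were the lowest and the highest of all 10 libraries. The log2 fold change was 0.049 ± 0.079 (adjusted p = 0.934), with an interval of 2 SE from -0.11 to 0.21. It was -0.012 without knock-in replicate 5.

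Class A holds Msr1, the founding macrophage receptor for acetylated and oxidized LDL, and Marco, which binds bacteria and inhaled particles. Msr1 (ENSMUSG00000025044, chromosome 8, 39581685 to 39642673, minus strand) was at 420, 408, 416, 473 and 361 CPM in knock-in replicates 1 to 5 and at 503, 408, 402, 468 and 415 CPM in control replicates 1 to 5. The 3 stroma-rich libraries held the 3 highest values, at 468 to 503 CPM against 361 to 420 CPM in the other 7. Its log2 fold change was -0.080 ± 0.082 (adjusted p = 0.892, 2 SE from -0.24 to 0.083). It was -0.026 without the stroma-rich libraries, -0.13 without knock-in replicate 4 alone (adjusted p = 0.690) and -0.0089 in the fit adjusted for the stromal score.

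Marco (ENSMUSG00000026390, chromosome 1, 120474538 to 120505024, minus strand) was scarcely expressed. Its estimated counts were 27, 19, 30, 40 and 10 in knock-in replicates 1 to 5 and 31, 9, 10, 95 and 10 in control replicates 1 to 5. The stroma-rich libraries again held the 3 highest levels, at 1.52 to 2.69 CPM against 0.387 to 1.32 CPM elsewhere. In CPM the means were 1.28 ± 0.557 in KI/KI and 1.17 ± 0.956 in control, with a log2 fold change of 0.065 ± 0.52 (adjusted p = 0.991, 2 SE from -0.97 to 1.097). Without the stroma-rich libraries the means were 1.08 ± 0.406 CPM in KI/KI and 0.545 ± 0.140 CPM in control and the log2 fold change 1.01 ± 0.42 (adjusted p = 0.654), and adjusting for the stromal score gave 0.70 (adjusted p = 0.801). Without control replicate 4 it was 0.69 (adjusted p = 0.835). It turned negative without knock-in replicate 4 (-0.17) and without control replicate 2 (-0.16), 3 (-0.085) or 5 (-0.068).

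**Figure D3:**
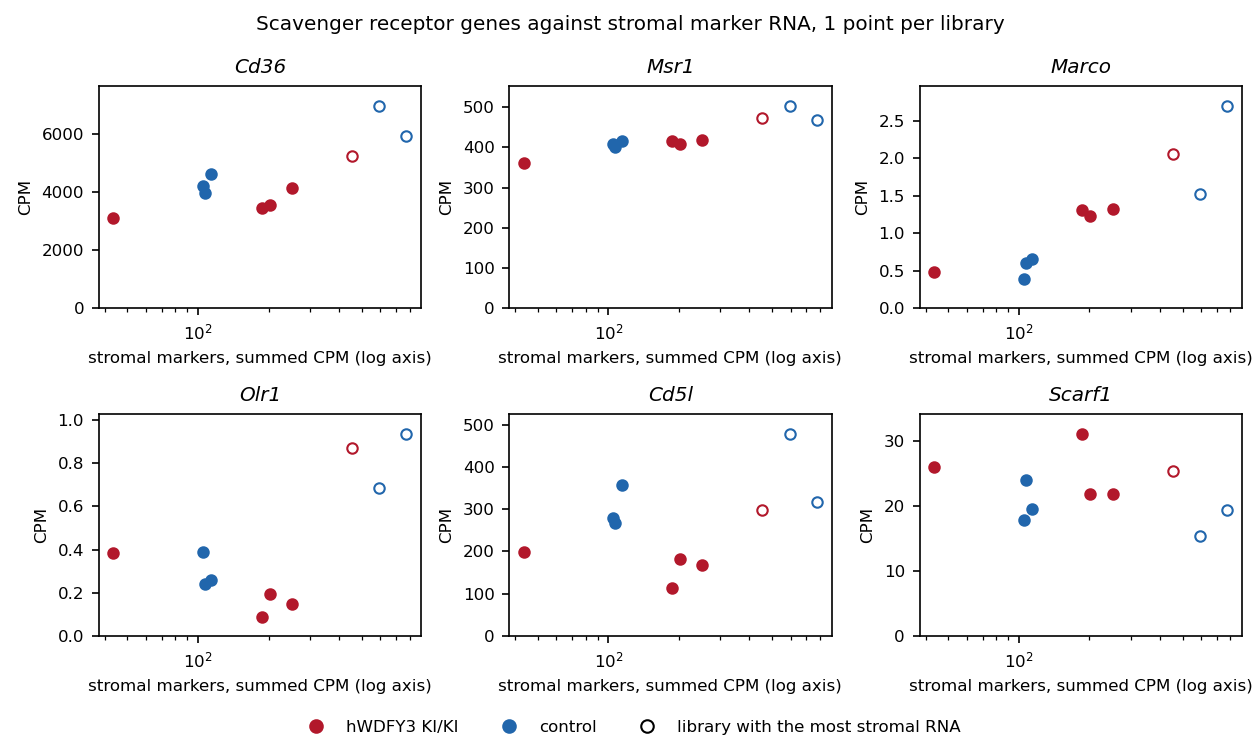
CPM of 6 scavenger receptor genes (vertical axes, from 0) against the summed CPM of the stromal markers in the same library (log axis), a sum that is mostly Fn1, hWDFY3 KI/KI in red and control in blue. The 3 open circles at the right are the stroma-rich libraries, in which Cd36 was at 5263 to 6971 CPM against 3104 to 4638 CPM in the other 7, and Olr1 at 0.686 to 0.936 CPM against 0.0873 to 0.387 CPM.

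Cd68, or macrosialin, is a heavily glycosylated class D protein of late endosomes and lysosomes that is widely used as a macrophage marker. Cd68 (ENSMUSG00000018774, chromosome 11, 69664213 to 69666153, minus strand) was at 1371, 1458, 1391, 1377 and 1522 CPM in knock-in replicates 1 to 5 and at 1232, 1259, 1553, 1349 and 1359 CPM in control replicates 1 to 5. All 5 KI/KI libraries lay above the control median, but control replicate 3 was the highest of all. The log2 fold change was 0.077 ± 0.067 (adjusted p = 0.880, 2 SE from -0.057 to 0.21). It was the steadiest member, with 1.26-fold between its lowest and highest library. In the fits that left out 1 library its log2 fold change ran from 0.047 to 0.13, the highest without control replicate 3 (adjusted p = 0.602).

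Olr1, or LOX-1, is the class E lectin-like receptor for oxidized LDL best known from endothelium. Olr1 (ENSMUSG00000030162, chromosome 6, 129485244 to 129507165, minus strand) had 3, 3, 2, 17 and 8 estimated counts in knock-in replicates 1 to 5 and 14, 9, 4, 33 and 4 in control replicates 1 to 5. The highest counts were those of the stroma-rich libraries. In a fit without a filter on low counts its log2 fold change was -0.63 ± 0.54 (adjusted p = 0.696), from 97 counts over 10 libraries. Endothelial markers, of which 4 of 10 were tested and none was at 0 in all libraries, summed to 96.3 to 143 CPM in the KI/KI libraries and 80.1 to 133 CPM in the control libraries. The stroma-rich libraries held the lowest sums, at 96.3 CPM in knock-in replicate 4 and 80.1 and 103 CPM in control replicates 1 and 4, against 117 to 143 CPM elsewhere. Most of the endothelial sum was Vwf, at 82.5 to 119 CPM in the KI/KI libraries and 67.9 to 116 CPM in the control libraries. The endothelial cadherin gene Cdh5 stayed at 0.260 to 0.439 CPM in the KI/KI libraries and 0.195 to 0.539 CPM in the control libraries. Pecam1 did not follow the sum, at 0.717 CPM in knock-in replicate 4 and 0.882 and 1.42 CPM in control replicates 1 and 4, against 0.439 to 1.30 CPM elsewhere. Kdr was at 11.8, 10.1 and 7.15 CPM in these libraries, against 8.68 to 20.1 CPM elsewhere. Which cells the Olr1 RNA came from was not tested.

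Scarf1, or SREC-I, is the class F receptor with epidermal-growth-factor-like repeats that binds acetylated LDL and dying cells. Scarf1 (ENSMUSG00000038188, chromosome 11, 75513540 to 75526582, plus strand) was at 21.9, 21.9, 31.1, 25.4 and 26.1 CPM in knock-in replicates 1 to 5 and at 15.4, 17.8, 24.0, 19.4 and 19.6 CPM in control replicates 1 to 5. All 5 KI/KI libraries lay above the control median and 3 lay above every control library, and only control replicate 3 reached into the KI/KI range. The means were 25.3 ± 3.79 CPM in KI/KI and 19.3 ± 3.15 CPM in control. The log2 fold change of 0.40 ± 0.12, or 1.32-fold, had the smallest p of the family (unadjusted p = 0.00657, rank 129 of 12411) and did not pass over all genes (adjusted p = 0.632). The interval of 2 SE ran from 0.15 to 0.64. The log2 fold change was 0.49 without control replicate 3 (adjusted p = 0.356) and 0.31 without knock-in replicate 3 (adjusted p = 0.962). Without the stroma-rich libraries it was 0.31 (adjusted p = 0.737). The stroma-rich libraries did not stand out here, with 15.4 to 25.4 CPM against 17.8 to 31.1 CPM in the other 7.

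The cysteine-rich (SRCR) group holds Cd163, the receptor for haemoglobin bound to haptoglobin, and Cd5l, also called AIM, a secreted SRCR protein of tissue macrophages that is a known target of LXR. Cd5l (ENSMUSG00000015854, chromosome 3, 87357881 to 87371073, plus strand) was at 169, 182, 114, 298 and 198 CPM in knock-in replicates 1 to 5 and at 478, 278, 268, 317 and 358 CPM in control replicates 1 to 5. Of the KI/KI libraries 4 lay below every control library, and the stroma-rich knock-in replicate 4 lay above control replicates 2 and 3. The means were 192 ± 67.2 CPM in KI/KI and 340.0 ± 85.1 CPM in control, a log2 fold change of -0.82 ± 0.26, or 0.565-fold. This was the largest difference of the family in size, with an interval of 2 SE from -1.34 to -0.31, and it did not pass over all genes (adjusted p = 0.700, unadjusted p = 0.0103, rank 180). Without the stroma-rich libraries the means were 166 ± 36.5 CPM in KI/KI and 301 ± 49.1 CPM in control, and the log2 fold change was -0.86 ± 0.20 (adjusted p = 0.314). It was -1.04 ± 0.21 without knock-in replicate 4 alone (adjusted p = 0.253), -0.68 without knock-in replicate 3 (adjusted p = 0.962) and -0.67 without control replicate 1 (adjusted p = 0.836). In the fit adjusted for the stromal score it was -0.71 (adjusted p = 0.673).

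Cd163 (ENSMUSG00000008845, chromosome 6, 124304656 to 124330527, plus strand) had 30, 22, 29, 22 and 14 estimated counts in knock-in replicates 1 to 5 and 38, 24, 15, 46 and 14 in control replicates 1 to 5. The groups overlapped, and their means of 1.19 ± 0.321 CPM in KI/KI and 1.20 ± 0.404 CPM in control lay close together. The log2 fold change was -0.029 ± 0.28 (adjusted p = 0.993), and its interval of 2 SE, from -0.58 to 0.52, is wide at these counts. It was 0.33 without the stroma-rich libraries (adjusted p = 0.929) and 0.16 when adjusted for the stromal score (adjusted p = 0.959), both opposite in sign. It was also positive without knock-in replicate 5 (0.12), control replicate 1 (0.18) or control replicate 4 (0.0054). Cd163 and Olr1 lie on chromosome 6, starting 1.70 and 6.88 Mb from the end of Apobec1, the gene with the smallest p in the comparison, which was at 932 ± 154 CPM in KI/KI and 291 ± 9.81 CPM in control (log2 1.68 ± 0.11, adjusted p = 1.28e-05). Only the longest transcript of each member was searched for stretches shared with other genes. That of Cd163 matched 2 other genes, the longest match being 131 bases of Gm12976 at 90.1% identity. Those of the other 9 genes shared no 100 bases at 90% identity with another gene. No exon of another annotated gene overlapped an exon of a member.

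Lrp1, a class L receptor of the LDL receptor family, takes up apolipoprotein E remnants and protease complexes and is also abundant in fibroblasts. Lrp1 (ENSMUSG00000040249, chromosome 10, 127538161 to 127621148, minus strand) was at 1570.0, 1595, 1529, 1690.1 and 1774 CPM in knock-in replicates 1 to 5 and at 1359, 1329, 1941, 1720 and 1690 CPM in control replicates 1 to 5. The KI/KI libraries all fell inside the range of the controls. The log2 fold change was 0.021 ± 0.098 (adjusted p = 0.984, 2 SE from -0.17 to 0.22), and it was -0.032 without the stroma-rich libraries, -0.011 without knock-in replicate 5, -0.032 without control replicate 1 and -0.040 without control replicate 2. The stroma-rich libraries, at 1359 to 1720 CPM, lay within the range of the others.

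**Figure D4:**
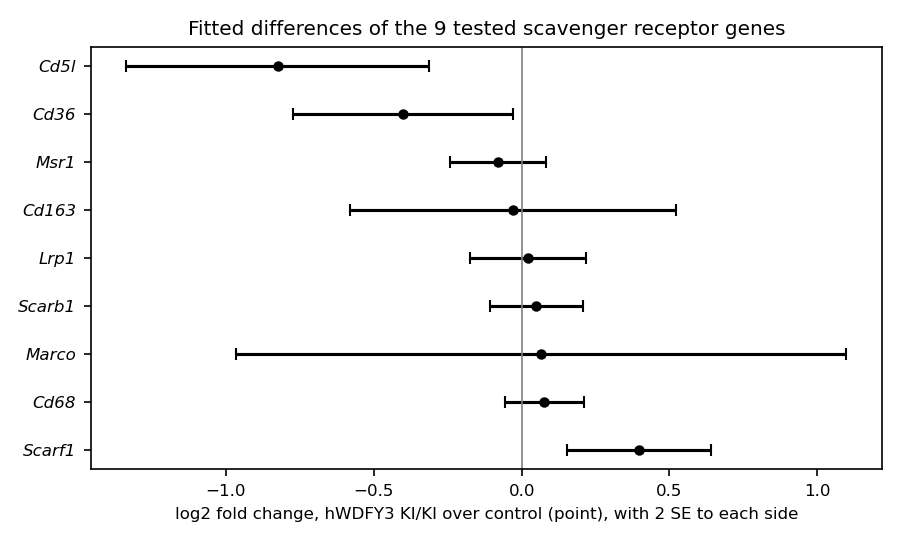
Fitted log2 fold change of hWDFY3 KI/KI over control for the 9 tested genes (horizontal axis; points), with 2 SE to each side (bars), ordered from the lowest at the top to the highest at the bottom. The bars of Cd5l, Cd36 and Scarf1 leave out 0 before adjustment over 12411 genes, the bars of the other 6 include it, and the bar of Marco is the widest. A bar of 2 SE is not the quasi-likelihood test, in which the unadjusted p of Cd36 was 0.0565.

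The spread among libraries differed widely between members. The highest library exceeded the lowest 1.26-fold for Cd68, 1.36-fold for Scarb1, 1.39-fold for Msr1 and 1.46-fold for Lrp1, against 2.02-fold for Scarf1, 2.25-fold for Cd36 and 4.21-fold for Cd5l. The scarce Cd163, Marco and Olr1 spanned 2.78-, 6.96- and 10.7-fold at 2 to 95 counts. On the deposited regularized-log scale, which pulls scarce genes towards their mean, the same Marco values spanned 4.54 to 4.77 and Olr1 2.92 to 3.00. On that scale Cd36 averaged 16.3 ± 0.216 in KI/KI and 16.6 ± 0.236 in control, Cd5l 12.02 ± 0.341 in KI/KI and 12.6 ± 0.238 in control, and Scarf1 8.91 ± 0.112 in KI/KI and 8.71 ± 0.0849 in control. The differences were -0.27 for Cd36, -0.59 for Cd5l and 0.19 for Scarf1, in the same directions as in CPM.

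For the 3 tested members that varied most, the genes of most similar profile were sought among 8194 genes of at least 10 CPM, by the mean absolute difference of centred log2 CPM over the 10 libraries. All genes share these libraries, so a small difference is a description. Closest to Cd5l was Il1rn, the interleukin-1 receptor antagonist, at a mean difference of 0.24 where Cd5l itself deviated from its mean by 0.48. Il1rn was at 66.7 CPM in KI/KI and 104 CPM in control (log2 -0.64 ± 0.13, adjusted p = 0.196), and DESeq2 called it (adjusted p = 4.90e-04, with 0.0943 to 0.547 over the other alternatives). Maoa, a monoamine oxidase, and Adcy3, an adenylate cyclase, followed at 0.28 each. Maoa was at 36.9 CPM in KI/KI and 56.9 CPM in control (adjusted p = 0.700). Closest to Marco, whose own mean deviation was 0.71, were Tmem165 at 0.34, Vsig8 at 0.35 and Fn1, itself among the stromal markers, at 0.36. Tmem165 had a log2 fold change of 0.26 (adjusted p = 0.906) and passed in 1 of the alternatives run, without the stroma-rich libraries (0.69, adjusted p = 0.00277). Closest to Cd163, with a mean deviation of 0.31, were Armcx2 at 0.14, the phospholipase Pla2g4a at 0.16 and the NF-kB inhibitor Tnfaip3 at 0.17. Cd163 had 14 to 46 counts per library and Marco 9 to 95. Counting noise is thus part of their profiles and of their rank among the most variable members, and its share was not tested.

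Of 37 further scavenger receptors and relatives of the same classes, 22 were tested and 0 passed (9 positive, 13 negative, median log2 fold change -0.016). Those not tested included Scara5, Asgr1 and Dmbt1, which had 0 counts in all libraries. Cd44, a class K receptor for hyaluronan, had the smallest p of these genes. It was at 419, 414, 407, 398 and 416 CPM in knock-in replicates 1 to 5 and at 353, 327, 335, 373 and 365 CPM in control replicates 1 to 5. The groups did not overlap, and the log2 fold change was 0.23 ± 0.051 (adjusted p = 0.254). DESeq2 called Cd44 (adjusted p = 4.17e-04), and the other alternatives gave 0.165 to 0.640. Sorl1, a sorting receptor of the LDL receptor family, was at 85.5 to 102 CPM in KI/KI and 79.03 to 83.7 CPM in control, again without overlap (log2 0.20 ± 0.052, adjusted p = 0.426, and adjusted p = 0.0487 in DESeq2 against 0.363 to 0.899 in the other alternatives). Lrp12 of the same family was at 158 ± 49.2 CPM in KI/KI and 124 ± 22.01 CPM in control (adjusted p = 0.846).

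The hyaluronan receptor Stab2 of class H was at 9.69 ± 2.04 CPM in KI/KI and 13.3 ± 3.57 CPM in control (log2 -0.45 ± 0.20, adjusted p = 0.787). Stab2 was highest in the stroma-rich libraries of each genotype, and its log2 fold change was -0.29 without them (adjusted p = 0.849) and -0.14 on the deposited log2 values (adjusted p = 0.877). Its paralogue Stab1 was at 416 ± 33.6 CPM in KI/KI and 431 ± 55.03 CPM in control (adjusted p = 0.938). Mrc1, the mannose receptor, was at 270 ± 60.6 CPM in KI/KI and 327 ± 58.98 CPM in control (adjusted p = 0.831), and Clec7a, the beta-glucan receptor dectin-1, at 1085 ± 169 CPM in KI/KI and 1158 ± 113 CPM in control (adjusted p = 0.899). Colec12, a class A collectin, was at 126 ± 55.1 CPM in KI/KI and 144 ± 41.8 CPM in control (adjusted p = 0.934), and Scarb2, the lysosomal class B protein LIMP-2, at 164 ± 7.04 CPM in KI/KI and 148 ± 21.4 CPM in control (adjusted p = 0.819). Without control replicate 1 the log2 fold change was -0.024 for Colec12, against -0.20 with all libraries, and -0.16 for Mrc1, against -0.28. Without knock-in replicate 4 it was -0.48 for Colec12 (adjusted p = 0.665) and -0.37 for Mrc1 (adjusted p = 0.610). For Scarb2 it was 0.15 with all libraries, 0.23 without control replicate 1 (adjusted p = 0.607) and 0.27 without the 3 stroma-rich libraries (adjusted p = 0.159). Cxcl16, the class G receptor for oxidized lipids, was at 101 ± 8.92 CPM in KI/KI and 101.5 ± 18.9 CPM in control (adjusted p = 0.996). The SRCR proteins Ssc4d, at 3.15 ± 0.198 CPM in KI/KI and 3.39 ± 0.303 CPM in control, and Lgals3bp, at 368 ± 47.2 CPM in KI/KI and 351 ± 23.03 CPM in control, did not pass either (adjusted p = 0.906 and 0.911).

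Among genes that handle the lipid taken up by these receptors, 27 of 28 were tested, 14 were positive, 13 negative and 0 passed (median 0.031). The log2 fold changes ran from -0.98 ± 0.50 for Apoc2 (adjusted p = 0.811) to 0.26 ± 0.15 for Pltp (adjusted p = 0.825). Apoe was at 2891 ± 1366 CPM in KI/KI and 4937 ± 1658 CPM in control (log2 -0.77 ± 0.39, adjusted p = 0.811). Acsl1, which activates long-chain fatty acids, was at 34.4 to 37.4 CPM in the KI/KI libraries and 38.9 to 40.6 CPM in the control libraries. The groups did not overlap, with a log2 fold change of -0.15 ± 0.045 (adjusted p = 0.588). Nceh1, a neutral cholesterol ester hydrolase, was at 439 ± 34.9 CPM in KI/KI and 390 ± 22.0 CPM in control (adjusted p = 0.709). Of 22 transcription factors and cofactors linked to scavenger receptor genes, all were tested, 13 were positive and 0 passed (median 0.00093). Srebf2, the regulator of sterol synthesis, was at 129 ± 13.7 CPM in KI/KI and 111 ± 15.6 CPM in control (adjusted p = 0.799), and Tfec, of the MiT family, at 14.7 ± 1.70 CPM in KI/KI and 16.8 ± 1.62 CPM in control (adjusted p = 0.7995). Pparg, the nuclear receptor best known for inducing Cd36, was at 58.0 ± 7.67 CPM in KI/KI and 58.1 ± 11.4 CPM in control. Nr1h3, which encodes LXR-alpha, was at 40.7 ± 6.05 CPM in KI/KI and 37.6 ± 6.20 CPM in control (adjusted p = 0.891). The RNA levels of Pparg and Nr1h3 do not measure the activity of these receptors. Of 21 partners and signalling proteins of CD36, 20 were tested, 9 were positive and 0 passed (median -0.012). Tlr4, which forms a complex with CD36 and TLR6, was at 111 ± 9.43 CPM in KI/KI and 99.8 ± 6.82 CPM in control (adjusted p = 0.786), and the kinase Syk at 382 ± 22.4 CPM in KI/KI and 352 ± 17.5 CPM in control (adjusted p = 0.799).

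**Figure D5:**
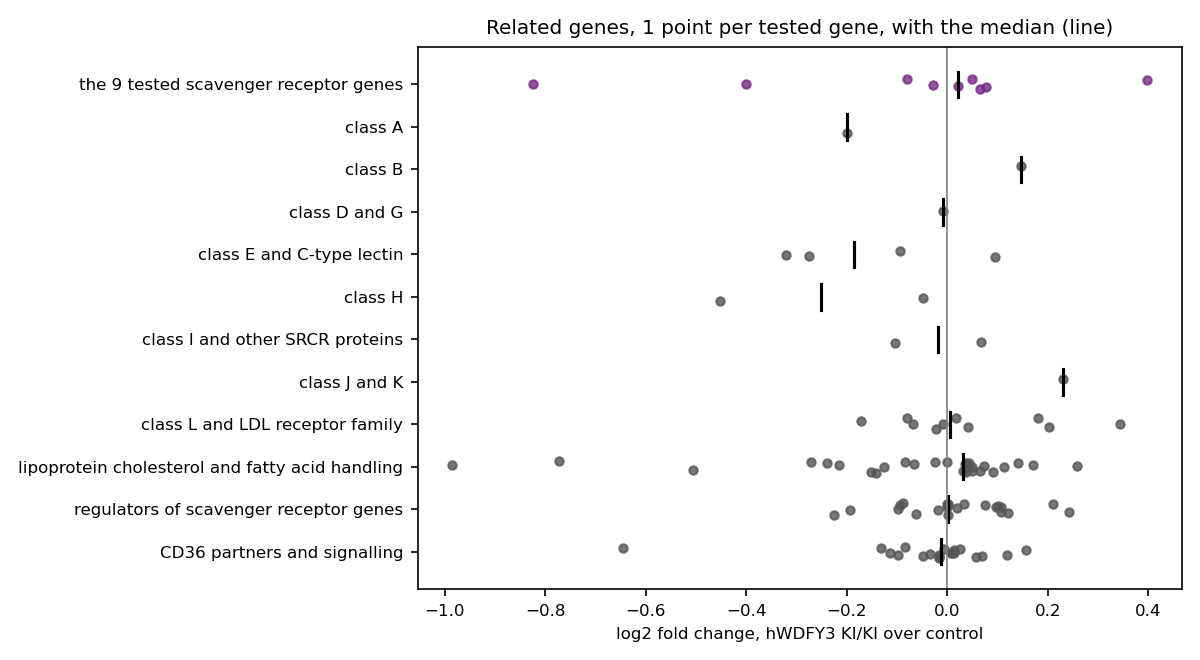
Log2 fold change of hWDFY3 KI/KI over control (horizontal axis) for the 9 tested scavenger receptor genes (top, purple) and for the tested genes of each related list (grey), with 1 point per gene and the median as a black line. The 9 genes run from -0.82 (Cd5l) to 0.40 (Scarf1), and their median of 0.021 lies close to 0, as do the medians of the 4 largest lists.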

How the data were processed

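The deposited count table holds estimated counts per Ensembl gene, and log2 values after DESeq2's regularized-log transform fill the other deposited table, judged by its name. DESeq2 1.34.0, Salmon 1.6.0 and MultiQC appear in the submitters' processing notes, as do the builds GRCm39 and mm10, without roles. How strand was used and how transcripts were summed is not stated there. Libraries were strand-specific, poly(A)+ and sequenced as 100-bp pairs, per the labels' protocols. Counts were rounded to whole numbers. Genotype was tested over all 10 libraries by quasi-likelihood in edgeR 4.0.16 under R 4.3.3, after filterByExpr (minimum count 10, minimum total 15), with TMM scaling and robust dispersion, Benjamini-Hochberg adjusted over 12411 genes, with a threshold of 0.05 and no covariate. The SE is the size of the fold change divided by the square root of F. Log2 CPM used a prior count of 2. The procedure was first tested on simulated data, with 50 changed genes of each size. It recovered 12% of them at a log2 size of 0.32, 64% at 0.58, 90% at 1 and 100% at 2, with 6 false calls. Their dispersion was that fitted to the mean level, so genes with a larger spread are not covered.

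Alternatives tried were DESeq2 1.42.0, scaling by RLE or by upper quartile, limma 3.58.1 (voom, and trend on the deposited log2 values), other filters on low counts, non-robust dispersion, the replicate number as a block, adjustment for the stromal marker score (mean log2 CPM), fits without the 3 stroma-rich libraries, and leaving out each library. For the related genes they were added after seeing the data. Coordinates are those of GENCODE M21 (GRCm38), assigned by gene ID. Besides the members, the text names, from each related list, the 2 tested genes with the smallest p and any called gene, and the 3 closest profiles of the 3 most variable members. Adgre1, Lyz2, Col1a1, Mmp8, S100a8, Vwf, Cdh5, Apoc2, Apoe, Pltp, Apobec1, Pparg and Nr1h3 were named after their values were seen. So were the genes at 0 counts. Wdfy3 was named as the mouse counterpart of the knocked-in gene. The members and lists were chosen with earlier results of these data known. The labels give 5 numbered replicates per genotype, read here as separate mice. The p-values set the difference between genotypes against the spread between libraries.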

Additional observations from a re-analysis of the deposited data

How the results depend on the processing

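None of the 9 tested members was called in any of the 21 alternatives, and Cd36, Cd5l, Cd68, Msr1 and Scarf1 kept their direction in all of them. Over the alternatives the log2 fold change ran from -0.53 to -0.24 for Cd36, from -1.04 to -0.59 for Cd5l and from 0.19 to 0.49 for Scarf1 (adjusted p from 0.299, 0.253 and 0.0763 upwards). Over all genes 10 were called, 52 in DESeq2, 38 without the 3 stroma-rich libraries, and 6 to 23 in the fits that left out 1 library; the cause was not tested. The replicate numbers are not said to pair mice, and the correlation of deviations of same-numbered libraries ran from -0.200 to 0.509, with 2 of 5 knock-in libraries correlating best with their own number. With the number as a replicate block 12 genes and 0 members were called, with a log2 fold change of -0.39 for Cd36 (adjusted p = 0.299) and 0.40 for Scarf1 (0.0763).

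Directions turned for some genes, none of them called in the comparison, and the cause was not tested. Without the 3 stroma-rich libraries the log2 fold change was 0.33 for Cd163, -0.032 for Lrp1, 0.70 for Fn1, -0.041 for Lgals3bp, 0.15 for Pla2g4a and 0.31 for Vsig8. Adjusted for the stromal marker score it was 0.16 for Cd163, -0.0022 for Lrp1, 0.47 for Fn1, 0.11 for Pla2g4a and 0.28 for Vsig8. Fn1 is 1 of the 12 markers in that score and was highest in the 3 libraries left out. Neither setting is therefore an independent check of Fn1. In limma on the deposited log2 values it was 0.0040 for Cd163, 0.017 for Pla2g4a and 0.079 for Pparg, and in limma-voom 0.0065 for Cxcl16 and 0.023 for Pparg. With the replicate block it was 0.0062 for Cxcl16, 0.0054 for Pla2g4a and 0.013 for Pparg. Pparg was also turned by RLE factors (0.00043) and upper-quartile factors (0.0044). In the fits that left out 1 library the log2 fold change ran from -0.12 to 0.18 for Cd163, -0.040 to 0.098 for Lrp1, -0.17 to 0.69 for Marco, -0.012 to 0.0997 for Scarb1, -0.085 to 0.061 for Cxcl16, -0.69 to 0.16 for Fn1, -0.074 to 0.091 for Pla2g4a, -0.11 to 0.070 for Pparg, -0.093 to 0.0074 for Stab1, -0.030 to 0.19 for Tnfaip3 and -0.88 to 0.15 for Vsig8. Counts of 2 to 95 limit what can be said of Olr1, Cd163 and Marco.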
